A study of Mus musculus with 80 samples.

Results

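The Flt3-positive cells described here were donor-derived bone marrow progenitors sorted 14 days after old hematopoietic stem cells (HSCs) were transplanted into mice. They were chosen by measured transcripts, as cells with at least 2000 detected genes, at most 5% mitochondrial counts, at least 2 *Flt3* molecules and 0 *Pf4* molecules. In all, 402 of the 4339 cells that passed the filter on genes and mitochondrial counts met this rule, 304 of 2406 in the CD150low-derived library and 98 of 1933 in the CD150high-derived library. Molecules were counted as unique molecular identifiers (UMIs), and levels below are CPM, the UMIs of a gene summed over the cells and scaled to a total of 1000000 UMIs.

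The study asked how old HSCs with low or high surface CD150, the receptor encoded by *Slamf1*, differ in what they produce. Donors were male C57BL/6 mice (CD45.2) of 20 to 24 months, and their lineage-negative Sca-1+ c-Kit+ CD48- CD34- CD150+ HSCs were sorted by CD150 level and transplanted, with Sca-1-depleted helper marrow, into lethally irradiated young CD45.1 recipients. On day 14, CD45.2 lineage-negative Sca-1+ c-Kit+ (LSK) marrow cells were sorted for droplet-based 3′ single-cell RNA-seq, with 1 library for CD150low-derived and 1 for CD150high-derived cells. The number of mice behind each library was not given in the sources used here. Freshly isolated HSCs of young (2 to 4 months) and old mice, in 2 further single-cell libraries, and 24 bulk RNA-seq libraries in 8 groups of 3 served for comparison. With 1 library per group no difference between the day 14 libraries could be tested, and the intervals given cover counting error only, neither the spread between mice nor that between cells. CD150 level of the donor, recipient mice, sort and library preparation cannot be told apart.

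Flt3 is the receptor tyrosine kinase for Flt3 ligand. Within the LSK compartment HSCs carry little or no Flt3, and its appearance together with CD48 and CD34 marks multipotent progenitors that have lost long-term repopulation and lean towards lymphoid and myeloid fates, away from megakaryocytes and erythrocytes. *Pf4*, whose 0 count was part of the rule, encodes platelet factor 4, a product of the megakaryocyte lineage.

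The Flt3-positive cells held 7471993 UMIs in the CD150low-derived and 3344197 UMIs in the CD150high-derived library. Their median depth was 23656.5 and 30844.5 UMIs per cell and their median number of detected genes 4834.5 and 5542.5. The CD150high-derived cells thus held more UMIs and more detected genes per cell. The median mitochondrial share was 3.25% in both libraries. The 2 day 14 libraries shared 3 barcodes among the kept cells, and none of these was Flt3-positive. Scrublet called 2 of the 304 CD150low-derived cells and 0 of the 98 CD150high-derived cells doublets, but it marked only 0.333% and 0.207% of all kept cells, so doublets are not known to be removed.

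*Flt3* (mm10 chr5:147330741-147400489, minus strand) chose the cells, so its own level is a description. The summed level was 129 CPM in the CD150low-derived and 92.1 CPM in the CD150high-derived cells. Just inside the limit, 159 and 45 cells held exactly 2 *Flt3* UMIs. Just outside it, 309 and 76 cells without *Pf4* held 1 UMI. The highest cells held 15 and 12. Of the cells with at least 2 *Flt3* UMIs, 112 of 416 (26.9%) in the CD150low-derived and 83 of 181 (45.9%) in the CD150high-derived library held *Pf4* and were therefore left out.

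The other markers of multipotent progenitors were present. *Cd34*, a sialomucin gained as HSCs differentiate, stood at 457 and 491 CPM in CD150low- and CD150high-derived Flt3-positive cells. In the Flt3-negative cells of the same libraries, which had 0 *Flt3* and 0 *Pf4* UMIs (809 and 434 cells), it stood at 312 and 183 CPM, and in freshly isolated old HSCs at 46.6 CPM. *Cd48*, a signalling lymphocyte activation molecule family member absent from the sorted donor HSCs, stood at 317 and 322 CPM, above the 228 and 173 CPM of the Flt3-negative cells. After each cell was thinned to 10878 UMIs, *Cd34* was detected in 98.6% and 100% of the Flt3-positive cells (279 and 98 cells deep enough). At the same depth it was detected in 86.5% and 64.3% of Flt3-negative cells, and in 32.4% and 27.7% of erythroid-primed cells, defined by at least 2 *Klf1* and 0 *Flt3* UMIs. The surface markers of HSCs stood lower than in Flt3-negative cells. *Slamf1* had 2.28 and 3.59 CPM against 17.1 and 34.5 CPM in Flt3-negative cells, and *Procr*, the endothelial protein C receptor of HSCs, 19.4 and 21.5 CPM against 30.2 and 36.6 CPM. *Hlf*, a transcription factor gene of HSCs, was much alike in both classes, with 198 and 141 CPM against 216 and 146 CPM. In all, 10 of 304 and 5 of 98 cells had *Procr* without *Cd48*, and 1 and 0 cells had 2 or more *Klf1* UMIs. The level of *Cd48* and *Cd34* thus went with the label of multipotent progenitors, and both transcripts were found together in 283 of 304 (93.1%) and 93 of 98 (94.9%) cells. These shares are unthinned, and no background was counted for them. After thinning, *Cd48* alone was detected in 92.5% and 92.9% of Flt3-positive cells. It was also detected in 73.4% and 51.2% of Flt3-negative and 58.8% and 60.2% of erythroid-primed cells.

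Defining markers of lymphocytes, neutrophils and macrophages were mostly at or near 0. Among B cell genes *Ms4a1*, *Pax5* and *Cd22*, among T and NK cell genes *Cd3e*, *Cd3d*, *Cd3g*, *Cd8a*, *Ncr1* and *Bcl11b*, among neutrophil genes *Retnlg* and *Mmp9* and among macrophage genes *Adgre1* had 0 UMIs in both sets of cells. The summed lists came to 27.0 and 22.7 CPM for B cells, led by *Cd79b*, to 28.1 and 33.2 CPM for T and NK cells, led by *Gata3*, to 15.7 and 8.37 CPM for neutrophils, led by *S100a9* and *Cxcr2*, and to 183 and 149 CPM for macrophages, of which *Lyz2* made up 151 and 126 CPM. The dendritic cell list summed to 1126 and 990 CPM, led by *Cst3*, and the basophil and mast cell list to 34.4 and 36.5 CPM, led by *Cpa3* and *Mcpt8*.

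The Flt3-positive cells made up a smaller share of the CD150high-derived library. They were 12.6% of kept CD150low-derived cells (95% exact binomial interval 11.3 to 14.03) and 5.07% of kept CD150high-derived cells (4.13 to 6.14), a difference of -7.57 percentage points (Newcombe interval -9.21 to -5.91). As background, at least 2 *Flt3* UMIs were found in 2 of 41 and 0 of 86 cells with 2 or more *Klf1* UMIs, whose median depths were 24028 and 39992.5 UMIs, and in 0 of 7 and 0 of 33 cells rich in the platelet genes *Gp9* and *Gp1bb*. They were found in 15 of 211 (7.11%) and 6 of 301 (1.99%) cells with *Procr* and without *Cd48*, and in 40 of 553 (7.23%) and 37 of 912 (4.06%) cells with 2 or more *Pf4* UMIs, so some cells with the transcripts of other classes also reached the *Flt3* limit. In freshly isolated HSCs they were found in 4 of 2758 old and 10 of 1104 young cells.

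*Pf4* UMIs were themselves unequal between the libraries. At least 1 *Pf4* UMI was present in 40.9% of kept CD150low-derived and 68.5% of kept CD150high-derived cells. Barcodes with under 1000 genes, which were not kept, carried *Pf4* at 195 and 623 CPM, close to the 203 and 555 CPM of kept cells. The same barcodes carried *Flt3* at 36.3 and 6.75 CPM, against 34.2 and 11.5 CPM in kept cells, so *Flt3* too was unequal outside the kept cells, and in the direction of the shares. The part that free *Pf4* and *Flt3* RNA played in the shares was not tested. Without the *Pf4* criterion the shares were 17.3% and 9.36%. Among cells with 0 *Pf4* UMIs only, they were 21.4% (19.3 to 23.6) and 16.1% (13.3 to 19.3), a difference of -5.26 points (-8.75 to -1.51). The share was lower in the CD150high-derived library in each of these settings.

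With cells thinned to equal depth before the rule was applied, the shares were 6.36% of 2011 and 2.32% of 1894 cells, a difference of -4.04 points (-5.34 to -2.78). With at least 1 *Flt3* UMI they were 25.5% and 9.0%, and with at least 3 they were 6.03% and 2.74%. The plot of shares gives 10 settings side by side.

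**Figure D1:**
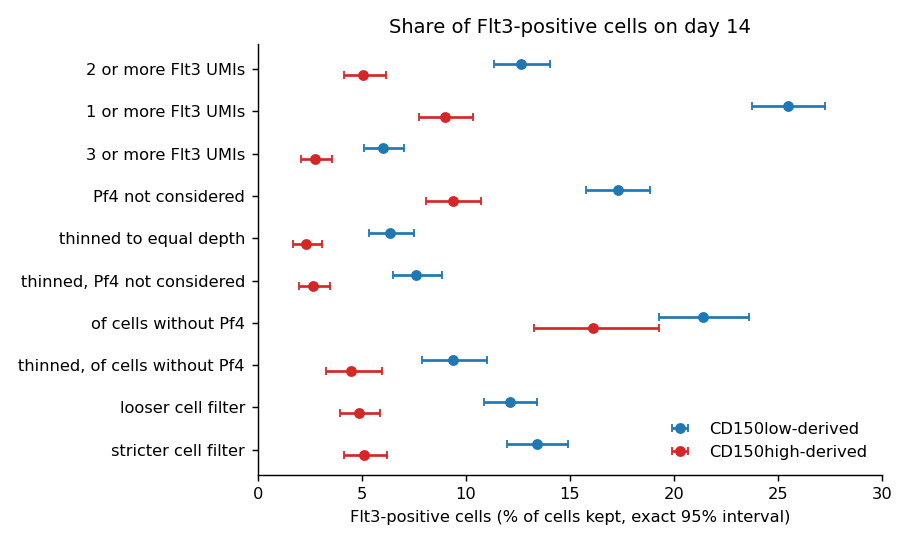
Share of day 14 cells that were Flt3-positive (x axis, percent of kept cells, with exact 95% binomial intervals) under 10 ways of counting (rows), for the CD150low-derived (blue) and CD150high-derived (red) library. The CD150high-derived point lies left of the CD150low-derived point in each row, 5.07% against 12.6% in the first, and 16.1% against 21.4% among cells without *Pf4*.

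The next question was what the cells share beyond *Flt3*. This contrast follows the rule, since Flt3-positive and Flt3-negative cells were separated by *Flt3* itself, so it is given as a description. Flt3-positive cells were also deeper than Flt3-negative cells, whose medians were 16629 and 25608.5 UMIs. Of 6010 genes with at least 20 CPM in 1 class in both libraries, 44 (0.732%), *Flt3* among them, were at least 1.5-fold higher and 98 (1.63%) at least 1.5-fold lower in the Flt3-positive cells of both libraries. Nothing is read from these counts, as the rule fixed the contrast.

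Genes of lymphoid priming led the higher group. *Dntt* (chr19:41029275-41059525, plus strand), which encodes terminal deoxynucleotidyl transferase and is switched on before antigen receptor rearrangement, stood at 71.2 CPM in CD150low-derived and 48.1 CPM in CD150high-derived Flt3-positive cells against 4.89 and 4.75 CPM in Flt3-negative cells. These are ratios of 14.6 and 10.1. Without the top cell of each class *Dntt* stood at 63.4 and 28.7 CPM against 3.75 and 3.45 CPM. *Irf8*, a transcription factor of dendritic cell, monocyte and B cell development, was 7.83-fold and 5.67-fold higher. It is also a member of the granulocyte-monocyte list. *Satb1*, a chromatin organizer of early lymphoid cells, was 4.02-fold and 7.42-fold higher. *Il12a*, a cytokine subunit gene, was 2.28-fold and 2.26-fold higher, and *Notch1*, a receptor that directs cells to the T lineage, 2.18-fold and 1.89-fold. *Il12a* stood at 51.1 and 39.8 CPM in Flt3-positive cells, but also at 30.9 and 31.5 CPM in cells with at least 2 *Pf4* and 0 *Flt3* UMIs. *Cd52*, a small lymphocyte surface glycoprotein, was 2.10-fold and 2.68-fold higher. In the lymphoid list 16 genes had at least 20 CPM. Of these, 7 were called higher in both libraries, among them *Dntt*, *Irf8*, *Satb1*, *Il12a*, *Notch1* and *Cd52*, and 1 was called lower (*Dach1*), and the median log2 ratio was 0.40 and 0.41 against -0.01 and -0.01 over all genes tested.

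Genes of committed lymphocytes were scarcely detected. *Rag1*, *Igll1*, *Ikzf3* and *Cd2* had 0 UMIs in both sets of cells. *Il7r*, the interleukin 7 receptor of common lymphoid progenitors, had 0.803 and 0.598 CPM, *Rag2* 1.47 and 1.20 CPM, and *Ccr9*, a thymus homing receptor, 0.803 CPM in CD150low-derived cells and 0 UMIs in CD150high-derived cells.

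The remaining 9 genes of the top 15 by the weaker of the ratios belonged to none of the gene lists. *Wfdc17* was 3.90-fold and 4.62-fold higher, the interleukin 1 receptor gene *Il1r1* 2.60-fold and 3.36-fold, *Ncf1*, which encodes a subunit of the phagocyte oxidase, 2.43-fold and 2.35-fold, and *Ctss*, cathepsin S, 2.09-fold and 2.94-fold. *Emb*, *Parp8*, *Bex6*, *Cep164* and *BC035044* completed the group, with ratios between 1.86 and 3.98.

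The lowest ratios belonged to genes of several other programs. *Apoe*, the apolipoprotein E gene, stood at 26.6 and 27.8 CPM in Flt3-positive cells against 375 and 639 CPM in Flt3-negative cells. *Prss34*, a basophil protease, had 3 and 2 UMIs, or 0.401 and 0.598 CPM, against 80.8 and 124 CPM. *Car1*, an erythroid carbonic anhydrase, had 2 and 0 UMIs against 30.2 and 51.0 CPM. *S100a8* had 4.95 and 1.50 CPM against 89.6 and 23.5 CPM, and *Nupr1*, a stress-induced gene that rises in old HSCs, 3.75 and 6.88 CPM against 32.9 and 99.4 CPM. *Elane*, *Ly6c2*, *Aldh1a1*, *Mcpt8* and *Pdzk1ip1* were the other genes of the lowest 10. Of 14 stem cell genes tested, 0 were called higher and 5 lower in both libraries (*Gata2*, *Mllt3*, *Procr*, *Esam* and *Pdzk1ip1*). For erythroid priming 5 of 6 genes were lower, for megakaryocyte priming 2 of 6 (*F2r* and *Itga2b*), for granulocyte-monocyte priming 4 of 14 with 1 higher (*Irf8*), and for the published HSC aging list 5 of 14. None of 49 G2/M genes was called, and their median log2 ratio was 0.30 and 0.20.

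Levels of several genes differed with the number of *Flt3* UMIs, which is the value that chose the cells, so they are given as a description, with the classes of 0 and 1 UMI outside the rule. *Dntt* stood at 4.89, 11.3, 18.1, 50.9 and 166 CPM in CD150low-derived cells with 0, 1, 2, 3 and 4 or more *Flt3* UMIs. In CD150high-derived cells it stood at 4.75, 10.8, 21.1, 27.3 and 106 CPM, of which the last was 40.7 CPM without 1 cell that held 65 of 105 UMIs. *Satb1* went from 13.5 to 78.3 CPM and from 5.00 to 47.3 CPM between the same end classes. *Gata2*, a transcription factor of HSCs and of the mast cell and megakaryocyte lineages, went the other way, from 131 to 33.2 CPM and from 145 to 32.2 CPM, and *Slamf1* from 17.1 to 0.426 CPM and from 34.5 to 1.01 CPM. *Mpo*, the myeloperoxidase gene of granulocyte-monocyte progenitors, was 388, 236, 172, 187 and 109 CPM in CD150low-derived cells. In CD150high-derived cells it was 292, 155, 127, 188 and 410 CPM. Single cells held much of it. Without the top cell of each class it was 371, 200, 107, 151 and 99.8 CPM in CD150low-derived and 251, 69.2, 99.0, 79.7 and 313 CPM in CD150high-derived cells, so the libraries still parted in the class with the most *Flt3*. *Hlf* showed no steady course, with 216, 220, 229, 211 and 142 CPM in CD150low-derived cells, nor did *Cd48*, with 228, 312, 320, 361 and 283 CPM. That class held 84 and 25 cells, and depth differed between the classes too, with a median of 16629 UMIs at 0 and 25926 UMIs at 4 or more in the CD150low-derived library. In the CD150high-derived library the median was 25608.5, 30494, 27800, 34967 and 37622 UMIs at 0, 1, 2, 3 and 4 or more.

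**Figure D2:**
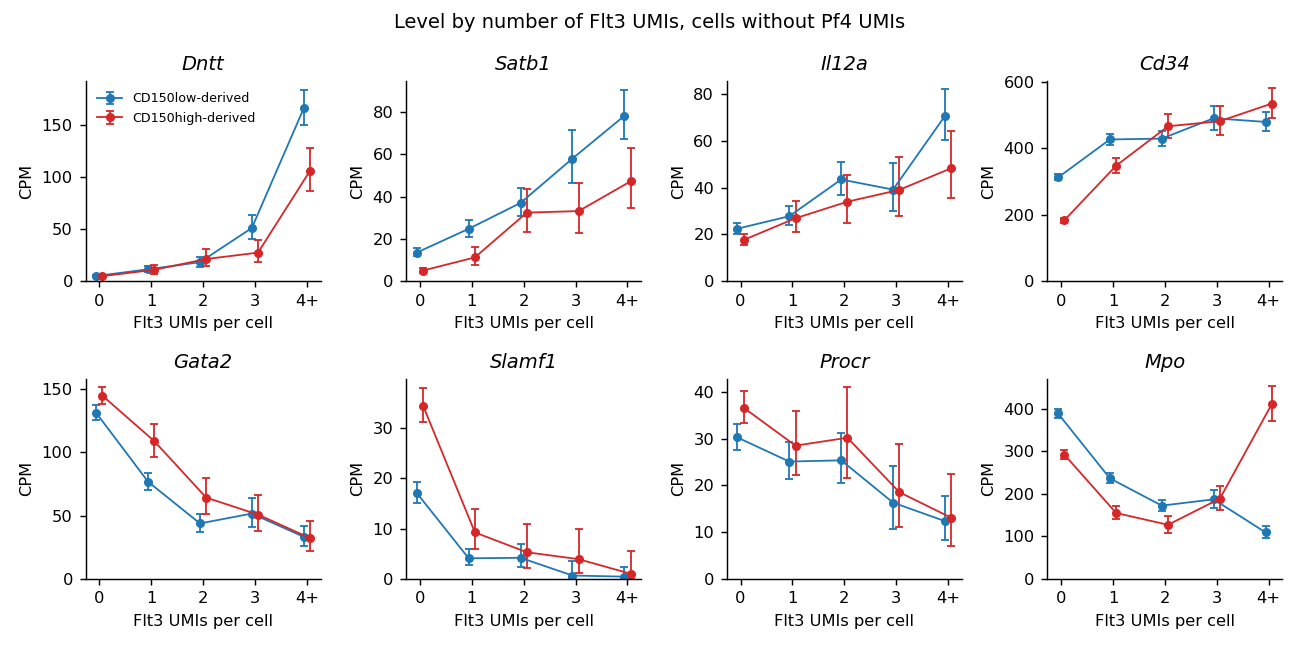
Level in CPM (y axis) of 8 genes in day 14 cells with 0 *Pf4* UMIs, grouped by the number of *Flt3* UMIs per cell (x axis), in CD150low-derived (blue) and CD150high-derived (red) cells, with exact 95% Poisson intervals. *Dntt* reaches 166 and 106 CPM at 4 or more *Flt3* UMIs and *Gata2* drops to 33.2 and 32.2 CPM, while *Mpo* ends at 109 CPM in CD150low-derived and 410 CPM in CD150high-derived cells.

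Both *Dntt* and *Mpo* were detected in part of the cells. *Dntt* was detected in 31.6% of CD150low-derived and 38.8% of CD150high-derived Flt3-positive cells, and after thinning in 22.6% and 27.6%, a difference of 4.97 points (-4.50 to 15.5). It was found in 0 of 37 and 0 of 83 erythroid-primed cells. *Mpo* was detected in 41.4% and 57.1% of cells, and after thinning in 33.7% and 43.9%, a difference of 10.2 points (-0.833 to 21.4), with a thinned background of 14.7% and 3.61% in erythroid-primed cells. Barcodes with under 1000 genes carried *Mpo* at 193 and 161 CPM, against 200 and 155 CPM in all kept cells. In Flt3-positive cells the order was the other way, with more *Mpo* in the CD150high-derived library. The same barcodes carried *Dntt* at 11.6 and 3.47 CPM, and the part of free RNA in these shares was not tested. Both transcripts were found together in 49 of 304 (16.1%) and 24 of 98 (24.5%) cells, *Dntt* without *Mpo* in 15.5% and 14.3%, *Mpo* without *Dntt* in 25.3% and 32.7%, and neither in 43.1% and 28.6%. In thinned cells both were found together in 8.96% and 10.2%, *Dntt* without *Mpo* in 13.6% and 17.3%, *Mpo* without *Dntt* in 24.7% and 33.7%, and neither in 52.7% and 38.8%, so the gap in cells with both transcripts was smaller at equal depth. Cells with *Dntt* had *Satb1* at 85.0 and 54.6 CPM against 40.7 and 27.6 CPM in cells without it, and *Notch1* at 41.6 and 28.2 CPM against 21.5 and 21.2 CPM. *Mpo* stood at 143 CPM in CD150low-derived cells with *Dntt* and 160 CPM in those without, and at 250 and 219 CPM in CD150high-derived cells. Without the top cell of each class these were 119 and 115 CPM, and 185 and 171 CPM, so the order in CD150low-derived cells rested on 1 cell.

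The CD150high-derived Flt3-positive cells were then set against the CD150low-derived ones. Of 6131 genes with at least 20 CPM in 1 of the libraries, 37 (0.603%) were at least 1.5-fold higher and 36 (0.587%) at least 1.5-fold lower in CD150high-derived cells, and the median log2 ratio over all genes was 0.05. With TMM scaling of the summed counts the split was 26 higher and 48 lower. In Flt3-negative cells of the same libraries, 49 of 6197 genes (0.791%) were higher and 46 (0.742%) lower. Of the genes called in Flt3-positive cells, 3 of the 37 higher (8.11%, or 6.12% of those called in Flt3-negative cells) and 9 of the 36 lower (25.0%, or 19.6%) were called in the same direction in Flt3-negative cells. None was called in the opposite direction. For ratios, thinned cells means that the rule was applied after thinning, which chose 128 and 44 cells. These differ from the 279 and 98 original members that were thinned for the detection shares above, so the values are no depth correction of the same cells. Of the 30 called genes named below, 18 stayed past 1.5-fold with thinned cells, 11 of the 14 higher and 7 of the 16 lower. With at least 1 *Flt3* UMI 6 of the 14 higher and 12 of the 16 lower stayed past it, and without the *Pf4* criterion 7 and 15.

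**Figure D3:**
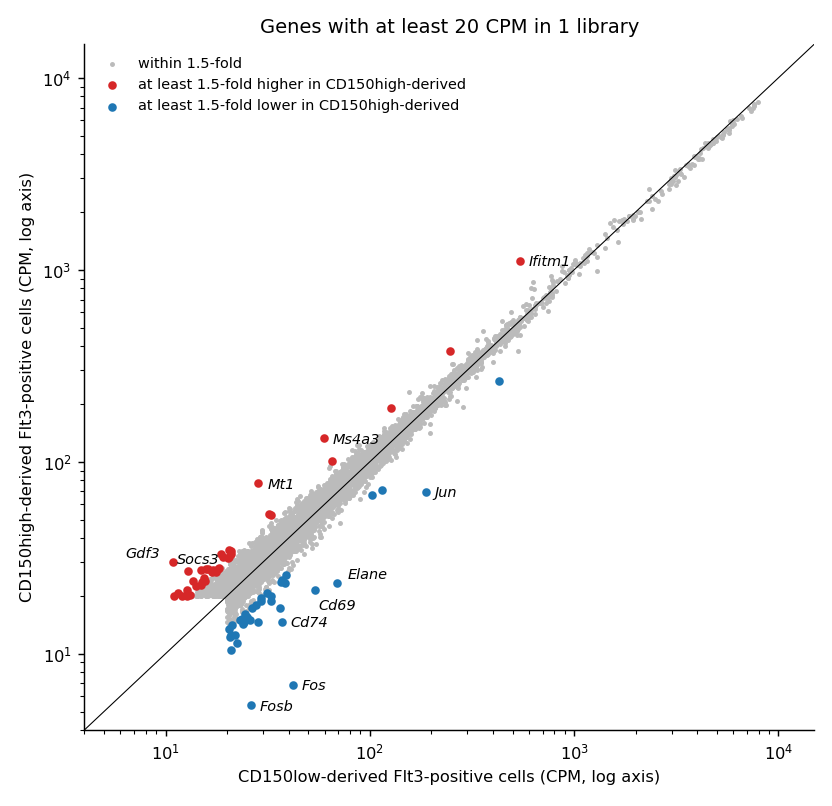
Level of the 6131 genes tested, *Flt3* not drawn, in CD150low-derived (x axis) and CD150high-derived (y axis) Flt3-positive cells, both in CPM on log axes, with the line of equality. The 37 genes at least 1.5-fold higher in CD150high-derived cells are red and the 36 lower ones blue, and *Fos* and *Fosb* lie farthest below the line.

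*Ifitm1* (chr7:140967221-140969825, plus strand), an interferon-induced membrane protein gene that the study lists among HSC aging genes, was the most abundant gene called higher. It stood at 543 CPM in CD150low-derived and 1112 CPM in CD150high-derived cells, a ratio of 2.05 (1.96 to 2.14). Per cell the median was 447 CPM (quartiles 231 and 857) and 936 CPM (584 and 1494), so the cells of the libraries overlapped and the difference was not that of a few cells. In Flt3-negative cells the ratio was 1.23 (1.19 to 1.27). In freshly isolated HSCs, with 1 library per age, *Ifitm1* was lower in old than in young cells, at 1686 and 2578 CPM. Its neighbour *Ifitm3* had 630 and 868 CPM, a ratio of 1.38 (1.31 to 1.44), and 1.42 (1.38 to 1.45) in Flt3-negative cells. Of 18 interferon-stimulated genes tested, 2 were higher (*Ifitm1* and *Usp18*, a deubiquitinase-like regulator of interferon signalling) and 0 lower. The log2 ratio of *Usp18* went from 0.73 to 0.10 with at least 1 *Flt3* UMI and to 0.17 without the *Pf4* criterion. Their median log2 ratio was 0.24, and 0.29 for the same genes in Flt3-negative cells. *Ifi47* and *Lgals3bp* had ratios of 0.93 and 1.01. The list's median was 0.01 without the *Pf4* criterion, 0.01 with at least 1 *Flt3* UMI and 0.42 with thinned cells.

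A pair of genes that the study follows as markers of HSC aging, *Vwf* and *Nupr1*, were nearly absent from these cells. *Vwf*, the von Willebrand factor gene, had 7 and 3 UMIs, or 0.937 and 0.897 CPM, a ratio of 0.96 (0.16 to 4.19). In Flt3-negative cells it had 6.49 and 39.3 CPM, a ratio of 6.06 (4.86 to 7.61). *Nupr1* had 28 and 23 UMIs, a ratio of 1.84 (1.01 to 3.30), against 3.02 (2.72 to 3.36) in Flt3-negative cells. In the published aging list 12 genes were tested, of which 1 was higher (*Mt1*), 0 were lower, and the median log2 ratio was 0.08. Whether the ratios differ between Flt3-positive and Flt3-negative cells was not tested.

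Among the other genes higher in CD150high-derived cells, *Gdf3*, a TGF-β family ligand gene, had 10.8 and 30.2 CPM, a ratio of 2.79 (2.06 to 3.78), whose log2 value went from 1.48 to 0.71 with at least 3 *Flt3* UMIs. *Mt1*, a metal-binding metallothionein, had 28.5 and 77.1 CPM, a ratio of 2.71 (2.25 to 3.26). Both were also higher in Flt3-negative cells, by 1.88-fold and 1.69-fold. *Socs3*, an inhibitor of cytokine receptor signalling, had 12.8 and 26.9 CPM, a ratio of 2.09 (1.55 to 2.82), and *Il4ra*, the interleukin 4 receptor, 20.3 and 34.7 CPM, a ratio of 1.71 (1.33 to 2.19). In Flt3-negative cells their ratios were 1.29 and 1.01. *Bcl3*, *Ubash3a*, *Cyb561d2*, *Nudt7* and *Irak4* had ratios of 1.74 to 1.83, each from 67 to 140 UMIs per library. With at least 1 *Flt3* UMI *Ubash3a*, *Cyb561d2*, *Nudt7*, *Irak4* and *Il4ra* were within 1.5-fold, and the last 4 of these also without the *Pf4* criterion. *Irak4* was within it with thinned cells and with cells weighted alike as well. *Mcpt8*, a basophil protease gene with 14.9 and 27.2 CPM, had a ratio of 1.83 here and 2.59 in Flt3-negative cells. Its log2 ratio here turned from 0.87 to -0.21 without the *Pf4* criterion. With at least 1 *Flt3* UMI it was 0.41, short of the limit. With thinned cells the log2 ratio of *Bcl3* turned to -0.22.

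Granulocyte-monocyte genes were unequal among themselves. *Ms4a3*, a marker of granulocyte-monocyte progenitors, had 59.4 and 132 CPM, a ratio of 2.23 (1.95 to 2.55), against 0.99 (0.94 to 1.05) in Flt3-negative cells. *Ctsg*, cathepsin G, had 247 and 376 CPM, a ratio of 1.52 (1.41 to 1.63), against 0.99 (0.96 to 1.02). *Mpo* had 155 and 230 CPM, a ratio of 1.48 (1.35 to 1.63), just under the limit, against 0.75 (0.72 to 0.78). *Elane*, neutrophil elastase, was called lower with 68.8 and 23.3 CPM, but 472 of its 514 CD150low-derived UMIs came from 1 cell and 44 of its 78 CD150high-derived UMIs from another. Without the top cell of each library it stood at 5.62 and 10.2 CPM, a ratio of 1.81. The same 2 cells held 237 of 1159 and 117 of 769 *Mpo* UMIs and 79 of 444 and 71 of 443 *Ms4a3* UMIs. Without each gene's own top cells the ratio was 2.28 for *Ms4a3*, 1.58 for *Mpo* and 1.49 for *Ctsg*, which put *Ctsg* just under the limit. *Ctsg* was under it also with thinned cells, with at least 1 *Flt3* UMI, without the *Pf4* criterion, with cells weighted alike, with TMM scaling and with totals that omit ribosomal protein and mitochondrial genes. Of 13 genes of the list tested, 2 were higher (*Ms4a3* and *Ctsg*) and 1 lower (*Elane*), with a median log2 ratio of 0.11, and -0.21 for the same genes in Flt3-negative cells.

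Lymphoid priming genes did not reach the limit when all cells were counted. *Dntt* had a ratio of 0.68 (0.56 to 0.81), *Satb1* 0.68 (0.55 to 0.84), with 54.3 and 37.1 CPM, and *Irf8* 0.71 (0.58 to 0.86), with 57.1 and 40.4 CPM. *Dntt* rested on few cells, since 65 of its 161 CD150high-derived UMIs came from 1 cell. Without the top cell of each library the ratio of *Dntt* was 0.45 and that of *Satb1* 0.66, both past the limit, while that of *Irf8* was 0.68. On the log2 scale *Dntt* turned from -0.56 to 0.55 with thinned cells, which were chosen anew by the rule, and to 0.10 with each cell weighted alike. Of 16 lymphoid genes tested, 0 were higher and 0 lower, with a median log2 ratio of -0.21 (-0.02 with thinned cells), and -0.08 for the same genes in Flt3-negative cells.

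The genes lower in CD150high-derived cells were led by immediate early genes, which are switched on within minutes of stimulation. *Fos*, a subunit of the AP-1 transcription factor, had 41.9 and 6.88 CPM and was 6.09-fold lower. *Fosb* had 26.1 and 5.38 CPM and was 4.85-fold lower. Of the few CD150high-derived UMIs, 12 of 23 for *Fos* and 9 of 18 for *Fosb* came from 1 and the same cell. The size of both differences was unsteady. With thinned cells the log2 ratio of *Fos* went from -2.61 to -0.87 and that of *Fosb* from -2.28 to -0.58, while without the top cells they were -3.61 and -3.16. *Jun*, their AP-1 partner, had 188 and 69.7 CPM and was 2.69-fold lower, with a median per cell of 114 CPM (quartiles 31.1 and 283) and 49.4 CPM (0 and 102.1). *Cd69*, an activation antigen, had 53.8 and 21.5 CPM and was 2.50-fold lower, but its log2 ratio went from -1.32 to -0.24 with thinned cells, short of the limit. *Btg2*, *Jund* and *Klf6* fell short of it too in thinned cells, at -0.39, -0.42 and -0.56. Of 10 immediate early genes tested, 0 were higher and 6 lower (*Jun*, *Jund*, *Fos*, *Fosb*, *Klf6* and *Btg2*), with a median log2 ratio of -0.66. The same genes had a median of -1.12 in Flt3-negative cells. Of 11 genes of the list tested there, 7 were lower and 0 higher, so part of the list was called lower in each class.

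The dendritic cell list had 0 genes higher and 3 lower of 7 tested (*Cd74*, *Clec10a* and *H2-Aa*). *Cd74*, the invariant chain of MHC class II, had 37.1 and 14.7 CPM, but 242 of 277 and 36 of 49 UMIs came from 1 cell of each library, and the same 2 cells held 131 of 156 and 27 of 42 *H2-Aa* UMIs. Without these cells *Cd74* stood at 4.68 and 3.89 CPM, and the ratio of *H2-Aa* went from 0.60 to 1.34. *Clec10a* had 23.2 and 15.0 CPM, and it was within 1.5-fold with thinned cells, with at least 1 *Flt3* UMI and with cells weighted alike. The list's median log2 ratio was -0.42 (0.01 with at least 3 *Flt3* UMIs), and -0.33 for the same genes in Flt3-negative cells. The other genes of the lowest 12, *Slc16a11*, *Tspan6*, *Chga*, *Rab11fip2* and *Bok*, had ratios of 0.48 to 0.58. Of these, *Chga*, *Rab11fip2* and *Bok* were within 1.5-fold in thinned cells, with log2 ratios of -0.14, -0.16 and 0.010. *Chga* and *Bok* were within it also with at least 1 *Flt3* UMI. *Bok* was so too with at least 3 *Flt3* UMIs and without the *Pf4* criterion.

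Genes of the Flt3 pathway list, which holds transcription factors and an inhibitor as well as signalling genes, differed little. Of 24 genes of this list tested, 1 was higher (*Socs3*) and 0 were lower, with a median log2 ratio of 0.08. The adaptor gene *Grb2* had 158 and 156 CPM, the kinase gene *Pim1*, a target of STAT5, 303 and 369 CPM, the transcription factor genes *Spi1* 146 and 153 CPM and *Myb* 316 and 342 CPM, and *Bcl2*, which protects from cell death, 83.1 and 99.6 CPM. *Stat5a* had 40.7 and 44.6 CPM and *Stat3* 72.8 and 97.5 CPM. *Kit*, the receptor for stem cell factor, had 127 and 119 CPM.

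In the remaining lists no gene but *Mcpt8*, of the basophil and mast cell list, passed the limit in either direction. The median log2 ratio was 0.20 for 18 genes of protein folding in the endoplasmic reticulum (0.26 in Flt3-negative cells), 0.12 for 21 chaperone genes, 0.13 for 15 genes of glycolysis, -0.06 for 81 cytosolic ribosomal protein genes and -0.01 for 13 mitochondrially encoded genes. It was 0.11 for 51 G2/M genes, or 0.00 with at least 3 *Flt3* UMIs. It was -0.08 for 41 S phase genes but turned to 0.089 with at least 1 *Flt3* UMI and to 0.020 without the *Pf4* criterion, and *Mki67*, a marker of cycling cells, had 436 and 439 CPM. It was 0.02 for 12 stem cell genes (-0.02 with TMM scaling), 0.28 for 5 megakaryocyte genes and -0.03 for 5 erythroid genes (0.29 with at least 3 *Flt3* UMIs). Among B cell and macrophage genes, 1 each was tested (*Cd79b* and *Lyz2*) and neither was called. The only basophil and mast cell gene tested, *Mcpt8*, was higher, though not without the *Pf4* criterion or with at least 1 *Flt3* UMI. No neutrophil, T or NK cell gene reached 20 CPM.

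**Figure D4:**
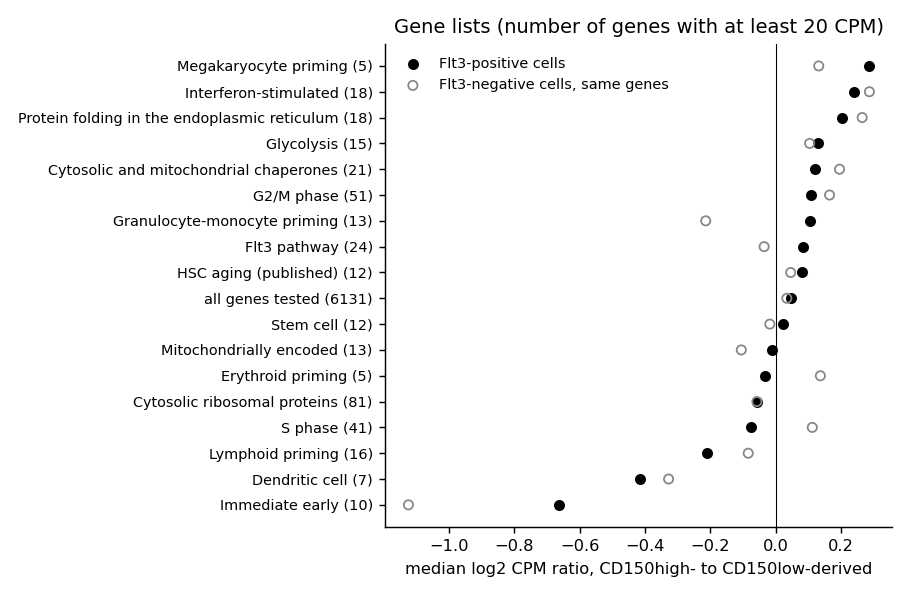
Median log2 ratio of CD150high- to CD150low-derived levels (x axis) for gene lists (rows, with the number of genes at 20 CPM or more) in Flt3-positive cells (filled) and for the same genes in Flt3-negative cells (open). Immediate early genes lie lowest in both, at -0.66 and -1.12, and granulocyte-monocyte genes lie on opposite sides of 0, at 0.11 and -0.21.

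The bulk libraries gave replicated levels of the same genes in the HSCs from which such cells descend. Levels here are FPKM, fragments scaled to transcript length and library total, with 3 libraries per group, and old HSCs were sorted into 4 CD150 grades from G1 (lowest) to G4 (highest). In bulk samples, fewer cells of a type and less RNA per cell cannot be told apart. *Flt3* was 3.21 ± 0.42 FPKM (SD, n = 3) in young HSCs and 0.79 ± 0.42 FPKM in old HSCs. It was 2.19, 4.16 and 2.20 FPKM in the G1 libraries and 0.55, 1.06 and 1.59 FPKM in the G4 libraries. G2 and G3 stood between or near them, with 2.09 ± 0.99 and 0.99 ± 0.53 FPKM. The G1 and G4 libraries did not overlap, but the log2 difference of -0.89 (SE 0.34) was not called (adjusted p = 0.752, limma with Benjamini-Hochberg adjustment, and 0.740 with mouse as a block). On day 4 after transplantation *Flt3* was 0.78, 0.93 and 1.31 FPKM in CD150low-derived and 0.40, 0.0056 and 0.33 FPKM in CD150high-derived HSCs. These too did not overlap, and the difference was not called (log2 difference -0.69, SE 0.38, limma adjusted p = 0.725). How many of all genes tested were likewise without overlap was not counted for any bulk comparison. Nothing is read from the order of the libraries.

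*Cd48* on day 4 was 42.2, 94.3 and 53.4 FPKM in CD150low-derived and 13.4, 16.2 and 25.0 FPKM in CD150high-derived HSCs, a log2 difference of -1.70 (SE 0.30, limma adjusted p = 0.282). *Cd34* was 72.5, 52.2 and 81.1 FPKM against 27.9, 20.8 and 8.12 FPKM, a log2 difference of -1.93 (SE 0.36, limma adjusted p = 0.282). None of the 3 markers of multipotent progenitors passed the adjusted threshold on day 4. All 3 were lower in each CD150high-derived than in each CD150low-derived library, but the share of all 11077 genes with this order was not counted. Between the CD150 grades *Cd34* was 63.6, 69.3 and 28.6 FPKM in G1 and 37.9, 24.8 and 26.4 FPKM in G4, lower in G4 in each of the 3 mice but with overlap between the groups (log2 difference -0.77, SE 0.35, limma adjusted p = 0.764, and 0.729 with mouse as a block). Without G1 replicate 3 its log2 difference was -1.16 (limma adjusted p = 0.0132). *Dntt* was at or near 0 in all bulk groups, with a highest value of 0.053 FPKM.

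The bulk comparisons made few calls. Between G4 and G1, 2 of 11466 genes were higher (0.0174%) and 1 was lower (0.00872%) at an adjusted p under 0.05 in limma, with 738 genes at an unadjusted p under 0.05. The lower gene was *Wfdc17*, which was among the genes higher in Flt3-positive cells. It had 123, 117 and 178 FPKM in G1 and 10.4, 15.0 and 8.33 FPKM in G4, a log2 difference of -3.53 (SE 0.26, limma adjusted p = 0.00652), and the groups lay far apart. On day 4 it was 23.2 ± 10.1 and 28.9 ± 5.2 FPKM (n = 3, limma adjusted p = 0.792), with overlap. It lost the call without G4 replicate 1 (adjusted p = 0.117) or G4 replicate 3 (adjusted p = 0.0663). The 2 higher genes were chosen for naming after their values were seen. They were *Clu*, with 88.0 ± 15.8 FPKM in G1 and 278 ± 20 FPKM in G4 (n = 3, limma adjusted p = 0.0372), and *Sbspon*, with 9.28 ± 4.35 and 83.3 ± 8.2 FPKM (n = 3, limma adjusted p = 0.0253). With mouse as a block, *Wfdc17* kept its call (limma adjusted p = 0.0475), while *Clu* (0.112) and *Sbspon* (0.0686) did not. Without G1 replicate 3 the calls numbered 96. On day 4, 0 of 11077 genes (0% in either direction) passed the threshold in limma, with 826 at an unadjusted p under 0.05. *Ifitm1* overlapped between the groups in both comparisons (limma adjusted p = 0.962 and 0.846, n = 3 each). *Vwf* was 33.8 ± 5.3 in G1 and 82.0 ± 14.5 FPKM in G4 and was not called (log2 difference 1.25, SE 0.21, limma adjusted p = 0.226). Without G1 replicate 3, limma called *Vwf* (adjusted p = 0.00290), *Nupr1* (0.00222) and *Ifitm3* (0.0229) higher in G4. *Mt1* on day 4 was 293 ± 53 and 504 ± 60 FPKM and was not called (limma adjusted p = 0.282).

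**Figure D5:**
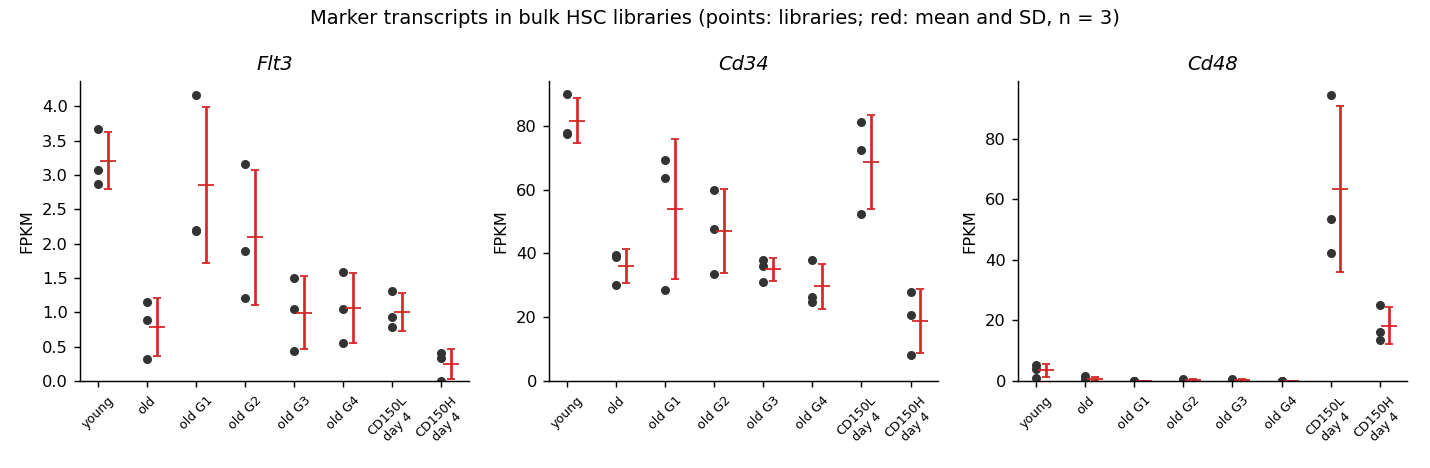
*Flt3*, *Cd34* and *Cd48* in FPKM (y axes) in each bulk library (points) of 8 HSC groups (x axis), with mean and SD in red (n = 3). *Flt3* lies between 2.19 and 4.16 FPKM in G1 and between 0.55 and 1.59 FPKM in G4, and *Cd48* has means in the day 4 groups of 63.3 FPKM in CD150low- and 18.2 FPKM in CD150high-derived cells.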

How the data were processed

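Deposited single-cell matrices hold UMI counts per gene and barcode, which the authors obtained from 10x 3′ v3.1 libraries using Cell Ranger, the mm10 genome and protein-coding genes. They are unnormalized. The deposited bulk table holds FPKM from SMART-Seq libraries, aligned by the authors with HISAT2 2.0.0 to mm10. The unit is that of the file headers. The study's methods describe read counts and no step that gives FPKM, Cufflinks is among the tools per the labels, and depth is unknown. Members and gene lists were chosen with earlier results of these data known.

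Cells were kept at 2000 or more genes (800 for fresh HSCs) and at most 5% mitochondrial UMIs, as in the study's methods. For CD150low-derived cells this left the number the study states, and for CD150high-derived cells slightly more, so the kept sets may differ. Counts were summed over cells and divided by their total (CPM). A gene was called at a 1.5-fold ratio with at least 20 CPM in 1 library. Intervals of ratios are exact conditional binomial 95% intervals, and a gene at 0 was set to 3 counts. UMIs of 1 cell are not independent. Doublets were sought with Scrublet (scanpy 1.11.5), TMM came from edgeR 4.0.16, Python was 3.11.15 and scipy 1.17.1.

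Bulk values were tested as log2(FPKM + 1) with limma 3.58.1 (R 4.3.3, trend), keeping genes whose mean reached 1 FPKM in 1 or more groups, with Benjamini-Hochberg adjustment. The table has 21835 rows, and rows with repeated symbols were summed. Replicate numbers name mice in G1 to G4. In the other bulk groups nothing says that libraries came from separate animals, so p-values there measure only the spread between these libraries. In the check of pairing, deviations from group means of same-numbered G1 and G4 libraries correlated at 0.00, 0.09 and 0.09. Coordinates are from GENCODE vM21. Named genes were the markers, the 12 highest and 12 lowest ratios between the libraries, the 15 highest and 10 lowest between Flt3-positive and Flt3-negative cells, list members, and Vwf, Nupr1, Ifitm1 and Ifitm3. The summed-count and limma computations were run on simulated data to check the code. The simulated counts were independent, so genes whose UMIs came from few cells were not covered. RRBS, ATAC-seq and histone mark files were not used here. Some genes of the lists are not reported here by name.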

Additional observations from a re-analysis of the deposited data

How the results depend on the processing

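The share difference kept its direction in every setting tried. It was -4.04 percentage points with thinned cells, -16.5 with at least 1 and -3.28 with at least 3 *Flt3* UMIs. In settings chosen after seeing the data it was -4.97 with thinned cells and no *Pf4* criterion, -5.26 among cells without *Pf4* and -4.89 among these after thinning. The numbers of genes higher and lower in CD150high-derived Flt3-positive cells, 37 and 36, depended on the setting. They were 748 and 432 with thinned cells, which leaves fewer cells and UMIs, 10 and 27 with at least 1 and 111 and 89 with at least 3 *Flt3* UMIs, 15 and 33 without the *Pf4* criterion, 62 and 88 with totals that omit ribosomal protein and mitochondrial genes, 60 and 49 with cells weighted alike, 107 and 101 at 10 CPM, 8 and 6 at 50 CPM, and 5 and 8 at 2-fold. Leaving out the top cell of each gene, chosen after seeing the data, gave 24 and 51. Of the log2 ratios, *Mcpt8* turned to -0.21 without the *Pf4* criterion, *Bcl3* to -0.22 and *Bok* to 0.010 with thinned cells, and *Elane* to 0.96 with thinned cells, 0.0068 and 2.87 with at least 1 and 3 *Flt3* UMIs and 0.85 without its top cells. *Cd74* turned to 1.73 and *H2-Aa* to 1.89 with at least 3 *Flt3* UMIs, and *H2-Aa* to 0.42 without its top cells. Of 418 values for 38 genes, 345 moved by less than their interval. Among the medians of the lists, those of erythroid genes turned to 0.17 with at least 1 and 0.29 with at least 3 *Flt3* UMIs, those of stem cell genes to -0.15 with at least 3 *Flt3* UMIs and -0.18 without the *Pf4* criterion, and that of the aging list went from 0.08 to 0.34 with thinned cells. The causes were not tested. Leaving the top cell out of each class by *Flt3* or *Dntt* was also chosen after seeing the data.

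Genes higher and lower in Flt3-positive than in Flt3-negative cells of both libraries, 44 and 98, were 114 and 76 with thinned cells, 71 and 153 with at least 3 *Flt3* UMIs and 12 and 36 at 2-fold, all chosen after seeing the data.

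In bulk, the 3 calls between G4 and G1 became 0 with every gene above 0 tested, and 0 to 96 when 1 library was left out, with 96 without G1 replicate 3, 1 without G4 replicate 2 and 0 without G4 replicate 1 or 3. *Wfdc17* then had an adjusted p of 0.117 without G4 replicate 1 and 0.0663 without G4 replicate 3, and 0.175 with every gene tested. The day 4 calls, 0, became 2 with every gene tested and 0 to 9 when 1 library was left out, with 9 without CD150low replicate 3. *Ifitm1* turned to a log2 difference of 0.24 without G1 replicate 3 and, on day 4, ranged from -0.41 to 0.091 when 1 library was left out, the latter without CD150high replicate 1. With the replicate block, pairing G1 and G4 by mouse left 1 call, *Wfdc17* (limma adjusted p = 0.0475), while *Clu* and *Sbspon* were no longer called. On day 4 no label ties the numbers to animals, same-numbered libraries correlated at -0.01, -0.06 and -0.08 in their deviations from the group means, and the block gave 3 calls.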

Other observations

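Genes of the stem cell program that Flt3-positive cells still carried differed by less than 1.5-fold between the libraries. *Angpt1*, an angiopoietin gene of HSCs, had 236 CPM in CD150low-derived and 198 CPM in CD150high-derived cells, *Meis1* 114 and 130 CPM, *Mecom* 51.1 and 44.6 CPM, and *Ly6a*, which encodes Sca-1, 198 and 247 CPM. Among lymphoid genes, *Mef2c* had 294 and 243 CPM and *Ikzf1*, the Ikaros gene, 105 and 108 CPM.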
